A study of Homo sapiens with 3 samples.

Results

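The genes of the complement system described here are 8 of the 18331 genes listed in any library, namely the components C1R, C1S, C3 and CFB and the inhibitors SERPING1, CD46, CD55 and CD59, chosen by symbol and matched to the Entrez identifiers of the deposited tables. All 8 were listed above 0 in each of the 3 libraries, and all 8 passed the filter on low counts. CFB and SERPING1 passed it through the control library alone, so these genes had to be high there to be tested. Protein, cleavage and surface levels were not measured.

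Complement is a cascade of blood and tissue proteases that tags cells and microbes for removal. In its classical pathway the protease C1r activates C1s, which cleaves further components towards C3, the central protein of the cascade, and factor B (CFB) supplies the protease of the alternative pathway that amplifies C3 cleavage. Host cells are shielded by inhibitors: C1 inhibitor (SERPING1) blocks C1r and C1s, CD46 and CD55 act against the C3-cleaving complexes on the cell surface, and CD59 blocks the membrane attack complex. Most circulating complement is made in liver, but epithelial and tumour cells also transcribe several of these genes, and several are known interferon targets.

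The libraries hold poly(A)-selected RNA of PC-3, an established human cell line from a bone metastasis of prostate cancer, harvested at 7 days of exposure to a lentivirus carrying a short hairpin RNA (shRNA). The libraries labelled KMT2D shRNA number 2, and the library labelled control shRNA is 1; all share the same line, medium and lentiviral infection. The labels give neither the hairpin sequences nor whether the numbers 1 and 2 stand for different hairpins or separate cultures, so p-values measure only the spread between these libraries, which may be technical. Totals were 5157482 and 5123794 estimated counts in KMT2D shRNA libraries 1 and 2, and 5559449 in the control.

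KMT2D, the targeted histone methyltransferase gene, had 107 and 138 CPM (counts scaled by TMM-adjusted library size) in KMT2D shRNA libraries 1 and 2, against 100.1 CPM in the control. KMT2D did not pass as lower: on the log2 scale it differed by 0.29 (SE 0.18; Benjamini-Hochberg adjusted p = 0.227 from edgeR's quasi-likelihood F test). Directions below are those of the libraries labelled KMT2D shRNA and not of a loss of KMT2D. Among prostate and epithelial markers, KRT8 and KRT18 were present in every library and KLK3 was at 0 in all 3. That list summed to 256 and 270 FPKM (an abundance per transcript length and library total) in KMT2D shRNA libraries, against 439 FPKM in the control. Of 8 leukocyte markers, CD163, AIF1, CD3E and MS4A1 were at 0 in all libraries, and the summed level of the list was 41.3 and 44.6 FPKM in KMT2D shRNA libraries, against 102 FPKM in the control. CD68 and LYZ made up most of that sum and fell in edgeR's test. The hepatocyte list summed to 5.08 and 6.53 FPKM in KMT2D shRNA libraries, against 8.76 FPKM in the control, with TTR and TF at 0 in all 3 and ALB at 1 to 3 counts. SERPINA1 made up most of that sum, at 4.06 and 5.44 FPKM in KMT2D shRNA libraries, against 7.22 FPKM in the control, and fell in edgeR's test. The fibroblast and endothelial list summed to 68.8 and 69.3 FPKM in KMT2D shRNA libraries, against 70.7 FPKM in the control. COL1A1 made up most of that sum, at 63.2 and 63.7 FPKM in KMT2D shRNA libraries, against 65.55 FPKM in the control. PECAM1 had 2.83 and 2.73 FPKM in KMT2D shRNA libraries, against 2.90 FPKM in the control, and VWF and CDH5 were at 0. The part of these marker genes in the results below was not tested.

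The comparison asked which complement genes differed between the KMT2D shRNA and control shRNA cultures. The secreted components fell together in the KMT2D shRNA libraries, CFB most of all, followed by C1S and C1R, with C3 least. The soluble inhibitor SERPING1 fell as well, from a low level. The membrane inhibitors did not share a direction: CD55 fell, CD46 rose, and CD59 did not pass the test. In edgeR's fit 6 of the 8 genes passed an adjusted p of 0.05 as lower and 1 as higher. Across all 14016 tested genes 31.1% passed, 14.5% as lower and 16.5% as higher. The median log2 fold change was -1.29 over the 8 genes and -0.01 over all tested genes. CFB and SERPING1 enter both the count of 6 lower genes and this median, although each was tested only through its high level in the control. RNA from bulk cultures cannot tell fewer cells that express a gene from less RNA per cell.

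**Figure D1:**
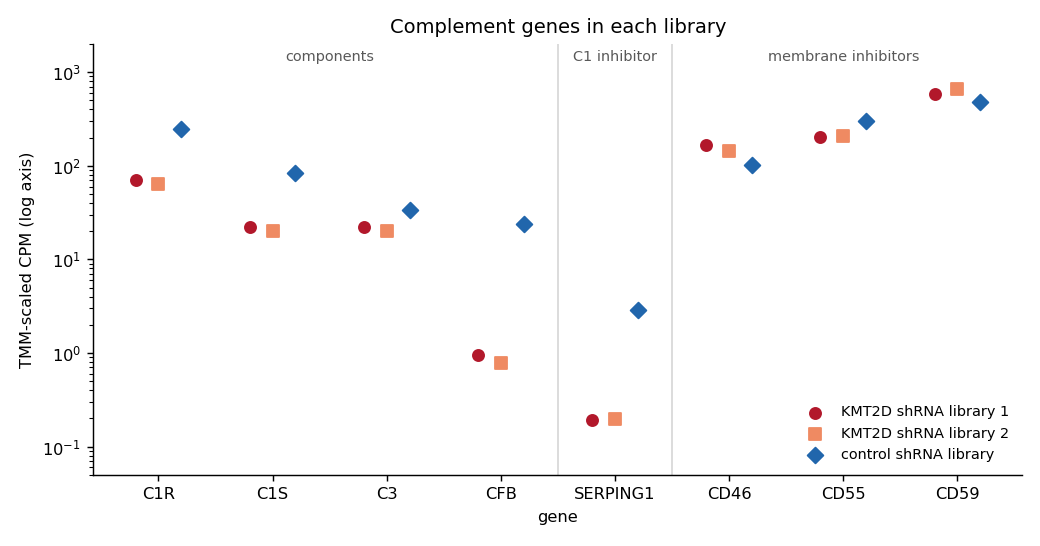
TMM-scaled CPM (log axis) of the 8 complement genes in KMT2D shRNA library 1, KMT2D shRNA library 2 and the control shRNA library, 1 point per library. The components and SERPING1 lie lower in both KMT2D shRNA libraries than in the control, with CFB at 0.956 and 0.788 CPM against 23.8 CPM.

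C1R and C1S encode the paired serine proteases of the C1 complex. C1R (Entrez gene 715) had 70.1 and 64.2 CPM in KMT2D shRNA libraries 1 and 2, against 249.02 CPM in the control, from 367, 326 and 1371 counts. Both KMT2D shRNA libraries lay far below the control and close to each other. The mean of the KMT2D shRNA libraries was 67.2 ± 4.17 CPM (SD, n = 2), and the fitted log2 fold change was -1.89 with an SE of 0.17 (adjusted p = 7.77e-13, edgeR). C1S (Entrez gene 716) had 22.4 and 20.3 CPM in KMT2D shRNA libraries, against 83.4 CPM in the control. Its mean was 21.3 ± 1.46 CPM (SD, n = 2), and on the log2 scale the fit gave -1.96 ± 0.19 (SE; adjusted p = 1.16e-11 by edgeR). Relative to the control, C1R stood at 0.282 (95% interval of the ratio 0.2504 to 0.316) in KMT2D shRNA library 1 and at 0.258 (0.228 to 0.291) in library 2. Such intervals, here and below, cover counting error only. The corresponding ratios of C1S were 0.268 (0.217 to 0.329) and 0.243 (0.195 to 0.302).

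The pair thus kept its proportion while its level changed. C1R supplied 75.8% of the counts of both genes in KMT2D shRNA library 1 (exact binomial 95% interval 71.8% to 79.6%) and 76.0% in library 2 (71.7% to 79.96%), against 74.9% in the control (72.9% to 76.9%). These intervals overlap. On the deposited FPKM scale, which divides by transcript length, C1R stood 3.493 and 3.501 times above C1S in KMT2D shRNA libraries, against 3.29 times in the control. C1R and C1S are neighbours on chromosome 12 with 0 protein-coding genes between them, and C1RL, a related protease gene, adjoins C1R on the other side. C1RL had 13.0 and 16.9 CPM in KMT2D shRNA libraries, against 19.8 CPM in the control, and did not pass (-0.40 ± 0.25 SE on the log2 scale, adjusted p = 0.221 by edgeR).

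Promoter windows are shown because interferon, STAT and NF-kB motifs are known from complement gene promoters. The RefSeq promoter table of GRCh38.p14 gives, for 5 of the 8 genes, windows of 250 bases before to 50 bases after an annotated start. C1S, C3 and SERPING1 have no entry in it. Each window was searched on both strands for GAAA followed by any pair of bases and GAAA again, the core of the interferon-stimulated response element, for TTCNNNGAA, the core of STAT sites and its own reverse complement, and for the NF-kB site. Of all 35116 windows in the table, 3.57% hold the first, 7.66% the second and 11.3% the third. The windows of CFB and C1R, the most changed genes with an entry, are shown with matches in capitals. The CFB window is chr6:31945845-31946144 on the plus strand, and those of C1R, on the minus strand, are chr12:7092396-7092695 (upstream start) and chr12:7091844-7092143 (downstream start).
CFB: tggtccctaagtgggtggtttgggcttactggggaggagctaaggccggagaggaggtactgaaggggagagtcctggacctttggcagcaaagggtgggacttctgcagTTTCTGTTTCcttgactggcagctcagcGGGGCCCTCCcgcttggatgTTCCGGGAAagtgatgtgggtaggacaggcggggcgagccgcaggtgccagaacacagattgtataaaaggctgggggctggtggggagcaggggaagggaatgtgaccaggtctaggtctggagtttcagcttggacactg
C1R upstream start: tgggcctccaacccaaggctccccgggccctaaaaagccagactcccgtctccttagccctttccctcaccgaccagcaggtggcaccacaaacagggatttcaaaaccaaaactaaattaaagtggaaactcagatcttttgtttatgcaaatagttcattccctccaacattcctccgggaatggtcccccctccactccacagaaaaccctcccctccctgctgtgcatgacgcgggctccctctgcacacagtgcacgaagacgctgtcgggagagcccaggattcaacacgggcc
C1R downstream start: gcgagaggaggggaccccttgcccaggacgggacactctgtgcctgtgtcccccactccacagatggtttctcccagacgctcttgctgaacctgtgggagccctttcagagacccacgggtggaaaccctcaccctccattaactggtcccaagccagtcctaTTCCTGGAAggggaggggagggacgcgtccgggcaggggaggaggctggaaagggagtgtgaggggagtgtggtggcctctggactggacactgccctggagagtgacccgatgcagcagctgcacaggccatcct
The CFB window holds all 3 motifs without overlap, in the order in which they are capitalised: TTTCTGTTTC, a reverse-strand match to that interferon core whose first base lies at -140 from the start; GGGGCCCTCC, a match to the NF-kB pattern at -112; and TTCCGGGAA, a STAT core, at -92. The downstream C1R window holds TTCCTGGAA, a STAT core, at -86, and the upstream C1R window holds none of the 3. Of the membrane inhibitors, the windows of CD46 and CD55 hold none, and among 4 windows of CD59 the 2 upstream ones, which overlap, share TTCTCAGAA. A match describes letters and not a bound site, and its absence says only that these letters are not in that window.

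CFB encodes factor B. CFB (Entrez gene 629) had 0.956 and 0.788 CPM in KMT2D shRNA libraries 1 and 2, against 23.8 CPM in the control. These levels rested on 5 and 4 counts in KMT2D shRNA libraries, against 131 counts in the control, so CFB was near the limit of detection in both. The CFB mean was 0.872 ± 0.118 CPM (SD, n = 2), and on the log2 scale the fit gave -4.73 ± 0.40 (SE; adjusted p = 1.45e-13 by edgeR). The ratio to the control was 0.0402 in library 1 (0.0128 to 0.0961) and 0.0331 in library 2 (0.00889 to 0.0869). CFB was thus 24.9-fold lower in library 1 (10.4 to 78.0) and 30.2-fold lower in library 2 (11.5 to 112). With 1 added to FPKM before the logarithm, the log2 fold change of CFB was -2.89, which understates it because the FPKM values were 0.37 and 0.29 in KMT2D shRNA libraries, against 8.87 in the control.

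Its relative C2, the classical-pathway counterpart of factor B, lies near CFB on chromosome 6 with 1 protein-coding gene between them. C2 had 3 and 8 counts in KMT2D shRNA libraries, against 12 in the control, and did not pass (-1.01 ± 0.84 SE on the log2 scale, adjusted p = 0.379 by edgeR).

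C3, on which the pathways converge, moved less than C1R, C1S and CFB. C3 (Entrez gene 718) had 22.0 and 19.9 CPM in KMT2D shRNA libraries 1 and 2, against 33.6 CPM in the control. The C3 mean was 20.9 ± 1.47 CPM (SD, n = 2), and on the log2 scale the fit gave -0.68 ± 0.21 (SE; adjusted p = 0.0116 by edgeR). Its ratio to the control was 0.654 in library 1 (0.514 to 0.830) and 0.592 in library 2 (0.460 to 0.759). The C3 call was lost with DESeq2 (adjusted p = 0.391), without a filter on low counts (edgeR adjusted p = 0.0739) and with limma on FPKM (adjusted p from 0.132 to 0.215). With the length trend described under CD59 removed, C3 stood at -0.99 (edgeR adjusted p = 0.000493).

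SERPING1 encodes the inhibitor of C1r and C1s. SERPING1 (Entrez gene 710) had 1 count in each KMT2D shRNA library, against 16 counts in the control, or 0.191 and 0.197 CPM in KMT2D shRNA libraries, against 2.91 CPM in the control. Its ratio to the control was 0.0658 in library 1, with a counting interval of 0.00157 to 0.423, and 0.0678 in library 2 (0.00162 to 0.436). SERPING1 passed as lower (edgeR adjusted p = 0.00671), but the fitted log2 fold change of -3.75 (SE 1.09) depended on the prior count and was -2.52 with a prior count of 2. Per length, C1R lay above its inhibitor in every library, at 28.1 and 25.2 FPKM in KMT2D shRNA libraries, against 97.3 FPKM in the control, where SERPING1 had 0.11, 0.11 and 1.57 FPKM.

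**Figure D2:**
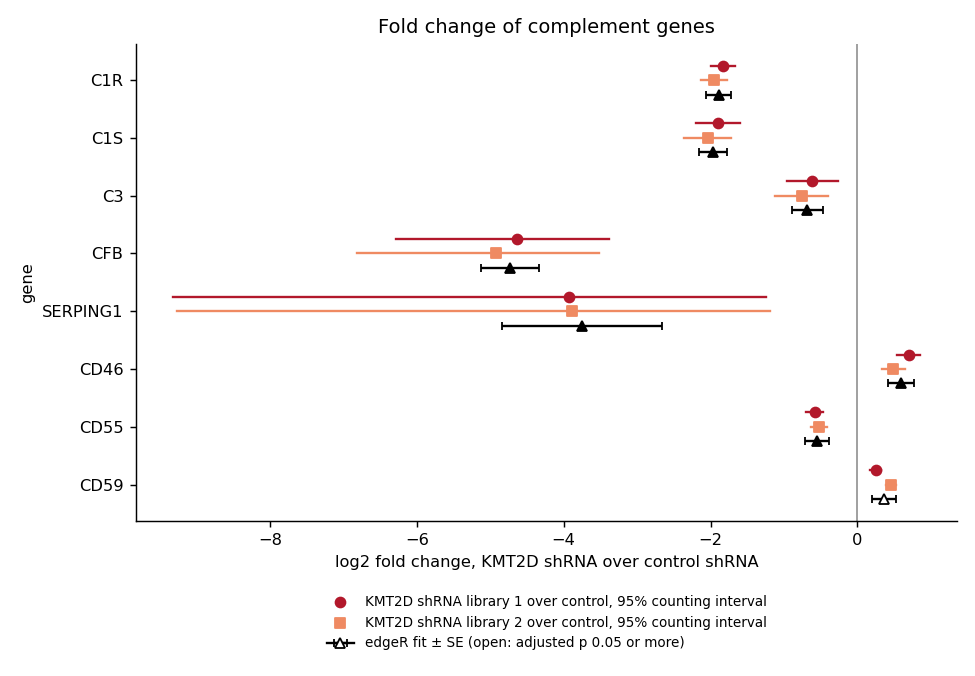
Log2 fold change of each complement gene, KMT2D shRNA over control shRNA. Circles and squares are the ratio of library 1 and library 2 to the control with 95% counting intervals, and triangles are the edgeR fit with its SE, open where the adjusted p was 0.05 or more. C1R and C1S lie at -1.89 and -1.96, the interval of SERPING1 is the widest because it rests on 1 count per KMT2D shRNA library, and CD59 is the open triangle.

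The membrane inhibitors were the most abundant of the 8 genes in KMT2D shRNA libraries, and their changes were smaller than those of C1R, C1S and CFB and near that of C3 in size. CD46, or membrane cofactor protein, helps factor I to inactivate C3b and C4b on host cells. CD46 (Entrez gene 4179) had 168 and 145 CPM in KMT2D shRNA libraries 1 and 2, against 103 CPM in the control. Its mean was 156 ± 16.1 CPM (SD, n = 2), and on the log2 scale the fit gave 0.60 ± 0.18 (SE; adjusted p = 0.00852 by edgeR). The ratio of library 1 to library 2 was 1.16 (1.05 to 1.28), so these libraries differed by more than counting error. The CD46 call was lost with DESeq2 (adjusted p = 0.122), without a filter on low counts (edgeR adjusted p = 0.0751), with limma on FPKM (adjusted p from 0.113 to 0.228) and with length and GC trends removed (log2 fold change 0.46, edgeR adjusted p = 0.0650).

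CD55, or decay-accelerating factor, takes apart the C3-cleaving complexes and is held to the membrane by a GPI lipid anchor. CD55 (Entrez gene 1604) had 201 and 209 CPM in KMT2D shRNA libraries 1 and 2, against 300.1 CPM in the control. Both KMT2D shRNA libraries lay below the control and differed from each other within counting error (ratio 0.961, 0.881 to 1.05). The CD55 mean was 205 ± 5.80 CPM (SD, n = 2), and on the log2 scale the fit gave -0.55 ± 0.16 (SE; adjusted p = 0.00856 by edgeR). The CD55 call was lost with DESeq2 (adjusted p = 0.0900), without a filter on low counts (edgeR adjusted p = 0.0602) and with limma on FPKM (adjusted p from 0.0882 to 0.174).

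CD59, also GPI-anchored, had the highest CPM of the 8 genes in every library. CD59 (Entrez gene 966) had 578 and 667 CPM in KMT2D shRNA libraries 1 and 2, against 486 CPM in the control. Both lay above the control, and the libraries differed from each other beyond counting error (ratio 0.866, 0.825 to 0.910). The CD59 mean was 623 ± 63.1 CPM (SD, n = 2), and the fitted difference of 0.36 ± 0.16 on the log2 scale (SE) did not pass (adjusted p = 0.0933 by edgeR). With the length trend removed it turned to -0.17 (edgeR adjusted p = 0.498), and with the GC trend removed too it was -0.14 (adjusted p = 0.616). The CD59 transcripts averaged 7648 bases, the longest of the 8 genes, and across all tested genes fold change followed length with a Spearman coefficient of 0.467.

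CD55 and CD46 lie in the cluster of complement regulator genes on chromosome 1, separated by the 3 genes CR2, CR1 and CR1L, and moved in opposite directions. The complement receptor genes CR1 and CR2 between them had 4 counts or fewer in KMT2D shRNA libraries, and CR1 had 13 in the control. CR1 did not pass (-2.23 ± 0.98 SE on the log2 scale, adjusted p = 0.0770 by edgeR), but did once the length trend was taken out (-2.81, edgeR adjusted p = 0.0342). CR1 was tested because the control alone, where it was high, passed the filter on low counts.

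Summed over CD46, CD55 and CD59, the level per length was 199 and 201 FPKM in KMT2D shRNA libraries, against 197 FPKM in the control, but its makeup differed. CD55 made up 35.9% and 36.2% of that sum in KMT2D shRNA libraries, against 52.9% in the control. CD46 made up 25.9% and 21.4% in KMT2D shRNA libraries, against 15.7% in the control. The share of CD59 was 38.1% and 42.4% in KMT2D shRNA libraries, against 31.5% in the control. The CD59 rise within that sum did not pass edgeR's test and turned to -0.17 on the log2 scale with the length trend removed. Summed over the components C1R, C1S, C3 and CFB, the level was 40.9 and 36.5 FPKM in KMT2D shRNA libraries, against 142 FPKM in the control. C1R made up most of this component sum, at 28.15 and 25.17 FPKM in KMT2D shRNA libraries, against 97.27 FPKM in the control. The membrane inhibitors thus summed to 4.86 and 5.52 times the components in KMT2D shRNA libraries, against 1.39 times in the control. These sums are descriptions of RNA per length, without a test.

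**Figure D3:**
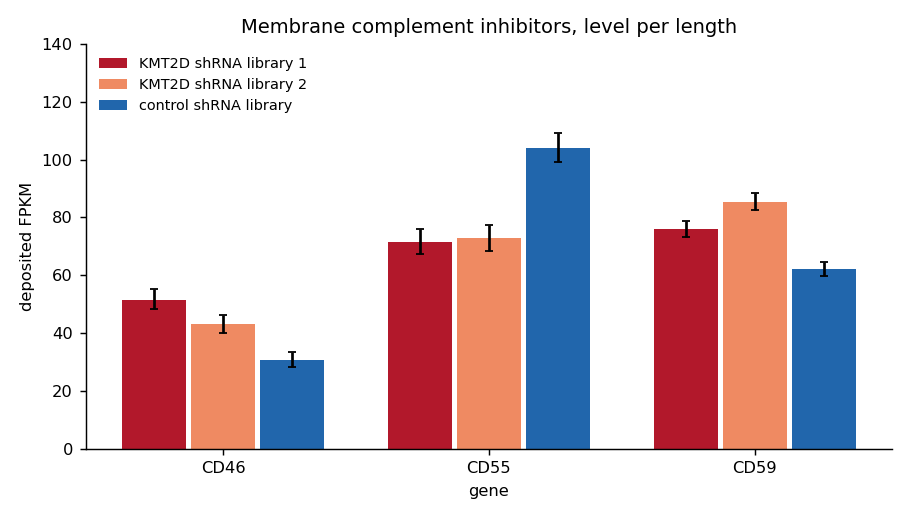
Deposited FPKM of the membrane inhibitors CD46, CD55 and CD59 in KMT2D shRNA library 1, KMT2D shRNA library 2 and the control shRNA library, with error bars for the 95% Poisson interval of the counts. CD55 is lower in both KMT2D shRNA libraries (71.5 and 72.8 FPKM, against 104 FPKM in the control), while CD46 is higher (51.6 and 43.1 FPKM, against 30.9 FPKM).

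Ordered by FPKM, both KMT2D shRNA libraries ran CD59, CD55, CD46, C1R, C1S, C3, CFB and SERPING1, whereas the control ran CD55, C1R, CD59, CD46, C1S, CFB, C3 and SERPING1. C1R had a higher FPKM than 79.3% and 77.2% of tested genes in KMT2D shRNA libraries, against 94.0% in the control. C1S had a higher FPKM than 45.9% and 43.3% of them in KMT2D shRNA libraries, against 79.3% in the control. CFB stood above 1.73% and 1.31% of tested genes in KMT2D shRNA libraries, against 50.6% in the control. Some neighbours in these orders did not differ beyond the 95% Poisson interval of their counts. The intervals overlapped for CD46 and C1S in the control (28.4 to 33.5 and 26.9 to 32.4 FPKM), for CD55 and C1R in the control (99.2 to 109 and 92.2 to 103 FPKM), and for CD59 and CD55 in KMT2D shRNA library 1 (73.2 to 78.6 and 67.3 to 76.0 FPKM). CFB and C3 in the control overlapped narrowly (7.42 to 10.5 and 5.55 to 7.45 FPKM). In both KMT2D shRNA libraries CFB and SERPING1 overlapped over most of their intervals.

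Many other complement genes gave no counts in these cells. Of 51 other complement genes on 4 lists, 22 were at 0 in all libraries, among them the C1q chains C1QA, C1QB and C1QC that carry C1r and C1s in the C1 complex and the terminal components C6, C8A and C8B. Of the 15 that were tested 2 fell, 2 rose and 11 did not pass, with a median log2 fold change of -0.40. For all tested genes the share past the threshold was 31.1%, with 14.5% as lower and 16.5% as higher, so these lists did not stand out by their number of calls. Of the 15, 10 lay below the control in both KMT2D shRNA libraries, as did 42.8% of all tested genes. Another 3 lay above it in both. The 6 tested receptor genes all lay below it, with a median of -1.34, and the 3 tested alternative and terminal components had a median of 0.78. Some of these receptors, CR1 and C3AR1 among them, were tested through the control alone. C3AR1, the receptor for the C3a fragment, had 2 and 1 counts in KMT2D shRNA libraries, against 28 in the control (edgeR adjusted p = 0.000185), and passed the filter on low counts through the control library alone. C5, from which the C5a fragment and the attack complex arise, rose to 28.5 and 24.4 CPM in KMT2D shRNA libraries, against 15.1 CPM in the control. Its fitted difference of 0.81 ± 0.24 on the log2 scale (SE; adjusted p = 0.00674 by edgeR) was 0.47 without the length trend and no longer passed (edgeR adjusted p = 0.165). MASP2, a protease of the lectin pathway, rose to 5.73 and 3.74 CPM in KMT2D shRNA libraries, against 0.908 CPM in the control, from 30, 19 and 5 counts (edgeR adjusted p = 0.00645, or 0.0582 without a filter on low counts). MASP2 passed that filter through the KMT2D shRNA libraries alone, where it was high.

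Other tested members of these lists gave no call. CFD, the protease factor D that cleaves factor B, had 11.1 and 10.4 CPM in KMT2D shRNA libraries, against 13.1 CPM in the control (edgeR adjusted p = 0.495). CLU, or clusterin, an inhibitor of the attack complex, had 48.0 and 68.4 CPM in KMT2D shRNA libraries, against 67.6 CPM in the control (edgeR adjusted p = 0.409). The integrin subunit gene ITGB2 of complement receptors 3 and 4 had 31.7 and 33.5 CPM in KMT2D shRNA libraries, against 44.1 CPM in the control (edgeR adjusted p = 0.0894). C1QBP, whose product binds C1q, had 83.3 and 72.3 CPM in KMT2D shRNA libraries, against 98.4 CPM in the control (edgeR adjusted p = 0.138). C4A was at 9 to 15 counts and C4B at 0 in every library; these near-identical copies cannot be told apart by short reads, so the split between them is uncertain.

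Genes of signals known to drive complement transcription were set beside these genes. All 8 interferon markers fell, led by ISG15 (log2 fold change -4.96), IFIT1 (-4.89) and MX1 (-4.69), where 14.5% of all tested genes passed as lower. Their median was -3.48, and their summed level was 309 and 288 FPKM in KMT2D shRNA libraries, against 6200 FPKM in the control. Of 8 NF-kB and IL6-STAT3 markers 5 fell and 0 rose in edgeR's test, with a median of -0.95. TNFAIP3, SOCS3 and STAT3 did not pass (adjusted p = 0.129, 0.329 and 0.299 by edgeR). STAT3 was low in every library, at 15 and 13 counts in KMT2D shRNA libraries, against 25 in the control. That is 0.58 and 0.52 FPKM, against 0.90 FPKM, so its result says little about STAT3 signalling in these cells. All 8 lay below the control in both libraries, as did 42.8% of all tested genes. The list summed to 227 and 239 FPKM in KMT2D shRNA libraries, against 476 FPKM in the control. IL6, the acute-phase cytokine, had 3.25 and 6.31 CPM in KMT2D shRNA libraries, against 49.6 CPM in the control. CEBPB, a transcription factor of the acute-phase response, had 39.2 and 42.2 CPM in KMT2D shRNA libraries, against 130.4 CPM in the control, and the cytokine gene CXCL8 had 105 and 83.2 CPM in KMT2D shRNA libraries, against 247.6 CPM in the control. The part of either signal in the complement genes was not tested. Of 13 genes for synthesis and attachment of the GPI anchor that CD55 and CD59 require, 3 rose and 0 fell, with a median of -0.12. The 3 were PIGK, PGAP1 and PIGO, with PIGO close to the threshold (edgeR adjusted p = 0.0492). Their transcripts averaged 4626, 11113 and 3565 bases, those of PGAP1 and PIGK being the longest of the 13. The part of the length trend in these rises was not tested. Among all tested genes 16.5% passed as higher. The list had no shared direction, as 7 of the 13 lay below the control in both KMT2D shRNA libraries and 6 above it.

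The genes nearest in pattern were sought for CFB and C1S, the most changed of the 8 among those with a mean of 5 CPM or more over the libraries. Likeness was the distance between pairs of log2 fold changes, library 1 and library 2 over the shared control, among 11872 genes at that level outside the 8; with 3 libraries it is a description. Nearest to CFB were HERC6 (distance 0.244), USP18 (0.263) and SLC15A3 (0.279). HERC6 had 9.17 and 7.29 CPM in KMT2D shRNA libraries, against 148 CPM in the control. Nearest to C1S were APOL6 (0.00562), FLT3LG (0.0509) and DDIT4 (0.102); C1R, one of the 8 and so not a candidate, lay nearer to C1S than DDIT4. APOL6 had 48.4 and 44.1 CPM in KMT2D shRNA libraries, against 179 CPM in the control. Within a distance of 0.25 lay 1 gene for CFB and 18 for C1S. CFB, SLC15A3 and FLT3LG reached the mean of 5 CPM only through the control, where they were high. The log2 fold changes used a prior count of 2. Those of CFB rested on 5 and 4 counts in KMT2D shRNA libraries, and the distance leaves out counting error, so the genes nearest to CFB are uncertain.

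**Figure D4:**
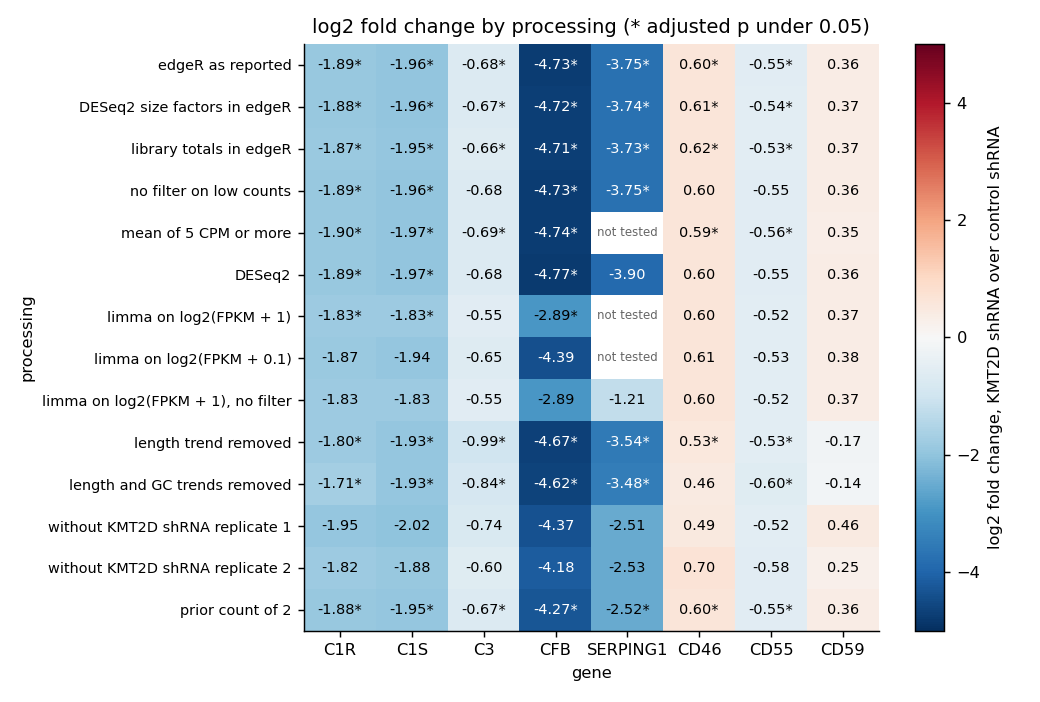
Log2 fold change, KMT2D shRNA over control shRNA, of the 8 complement genes (columns) under each processing (rows), coloured by value, with an asterisk where the adjusted p was under 0.05. The rows that leave out 1 library have no test. C1R, C1S, C3, CFB, SERPING1 and CD55 keep a negative value in every row where they have one and CD46 a positive one, while CD59 is 0.36 as reported and -0.17 with the length trend removed.

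The calls depended on the processing to different degrees. C1R, C1S and CFB passed in 9 of 11 fits with a test, with adjusted p up to 0.174 in the others, which were limma on FPKM. C3 and CD55 passed in 6 of 11 and CD46 in 5 of 11, CD59 passed in 0, and SERPING1 passed in 6 of the 7 that gave it an adjusted p. CD59 had an unadjusted p of 0.0346 in edgeR's test. Among all genes, the share called was 30.9% with DESeq2 size factors, 23.2% with library totals, 30.6% at a mean of 5 CPM or more and 10.4% without a filter (4.65% as lower). It was 10.8% with DESeq2 (4.27% as lower). With limma it was 2.22% on log2(FPKM + 1) (1.52% as lower), 0.744% on log2(FPKM + 0.1) and 0.0% without a filter. With the length trend removed it was 19.2%, and with the GC trend removed too 17.8% (8.11% as lower and 9.67% as higher).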

How the data were processed

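RNA was sequenced on a BGISEQ-500 after oligo(dT) selection and random priming, per the labels' protocols, which name no step that marks strand. The submitters' processing notes name the build hg19 and the tools HISAT and Bowtie2, without role or version, and the counting tool is not given in the sources used here. The authors deposited, per the file headers, an expected count and an FPKM for each gene of each library. Expected counts are estimated reads without normalization, and 67.8% to 68.0% of them were exact whole numbers. FPKM is scaled by transcript length and library total. The deposited length, in bases, can differ between libraries, and its mean was used.

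Tables were joined on the Entrez identifier, an unlisted gene was taken as 0, and names came from a RefSeq gene table (GRCh38.p14, names and neighbours only), which named 18242 of 18331 identifiers directly or through a transcript. Counts were rounded and tested with edgeR 4.0.16 in R 4.3.3 (default filter on low counts, TMM, quasi-likelihood F test on group, Benjamini-Hochberg over 14016 genes, threshold 0.05, 1 residual degree of freedom, so the control was assumed to vary like the KMT2D shRNA libraries). The method was tested on simulated data. SE values derive from the F statistic. Between KMT2D shRNA libraries 1 and 2 the chi-square averaged 5.59 for each gene, more than sampling alone gives, so both entered as samples. The floor of 3 counts equals 0.582, 0.586 and 0.540 CPM in KMT2D shRNA libraries 1 and 2 and the control, before TMM. Intervals cover counting error only, because each rests on the counts of single libraries. PCR copies were not marked by molecular identifiers, so the intervals may be too narrow. Alternatives were other scalings and filters, DESeq2 1.42.0, limma 3.58.1 on log2(FPKM + 1) or log2(FPKM + 0.1), removal of lowess trends on length and GC content (GC known for 98.2% of tested genes), and each KMT2D shRNA library left out.

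The genes and lists were chosen with earlier results of these data known. Named beside the 8 genes are up to 4 called members of each other complement list by size of change. Up to 2 uncalled ones at a mean of 5 CPM or more, members of the comparison lists by the same ranking, and the 3 genes nearest in pattern are named too. C2, CR1, CR2, C4A, C4B, TNFAIP3, SOCS3 and STAT3 were named after their values were seen. A planned comparison of protein sequences was not made. Some members of the other lists enter the counts, medians and sums but are not reported by name here.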

Additional observations from a re-analysis of the deposited data

How the results depend on the processing

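No paired analysis was possible because the control has 1 library, with no number in the labels. As reported, 4352 genes, 7 of the 8 complement genes (6 lower, 1 higher) and 4 other complement genes passed. DESeq2 size factors or library totals changed no call among the 8. Without a filter on low counts 1897 genes, 4 of the 8 (0 higher) and 2 other complement genes passed, and at a mean of 5 CPM or more 2 other complement genes passed, with fewer genes tested. DESeq2 called 1169 genes, 3 of the 8 (3 lower, 0 higher; 5 had an unadjusted p under 0.05) and 1 other complement gene. Limma on log2(FPKM + 1) called 295 genes, 3 of the 8 (3 lower, 0 higher) and 0 other complement genes. Limma on log2(FPKM + 0.1) called 99 genes, and without a filter limma called 0 genes; both called 0 of the 8, lower or higher, and 0 other complement genes, although 6 and 5 of the 8, and 3 and 7 of the others, had an unadjusted p under 0.05, and edgeR called 7 and 4. With the length trend removed 2691 genes passed and with length and GC trends removed 2493, of which 0 of the 8 as higher because CD46 missed the threshold; CD59 reversed to -0.17 and -0.14. The cause of these shifts was not tested. Leaving out 1 KMT2D shRNA library gave values without a test, with a prior count of 2: no direction changed, CFB ran from -4.37 to -4.18 and SERPING1 from -2.53 to -2.51. At 1 count per KMT2D shRNA library, depth limits the size of the SERPING1 change, and at 4 and 5 counts that of CFB.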
